A study of Mus musculus with 70 samples.

Results

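Gata3, Batf, Irf4, Prdm1, Pparg, Rora, Maf and Nfil3 are 8 transcription factor genes known for their roles in regulatory T cells (Tregs) of nonlymphoid tissues, and they are described here in Tregs from 6 tissues of the mouse. The genes were chosen by name, with earlier results of these data known, and they are 8 of the 53465 gene IDs in the count table. RNA was sequenced from sorted Tregs of 5 male Foxp3YFP-cre mice, which carry a yellow fluorescent protein and Cre fusion at the Foxp3 locus, aged 16.6 to 18.6 weeks, and the labels name no treatment. From each mouse, Tregs were taken from the blood and spleen, from the lungs, the visceral fat of the abdomen (visceral adipose tissue, VAT), the lamina propria of the colon and the skin of the back. ST2+ CD44hi and ST2- CD44hi Tregs were sorted from all 6, where ST2 is the IL-33 receptor encoded by Il1rl1 and high CD44 marks effector Tregs. From spleen and lungs, ST2- CD44lo CD62L+ Tregs, the central Treg phenotype, were sorted as well, which made 14 groups and 70 libraries. The gate took live CD4+ YFP+ cells that carried CD45.2 and lacked CD8, CD11b and a further lineage marker, with 220 cells per library where the tissue gave them and 55 in the kept library with the fewest.

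Gata3 binds GATA motifs, promotes ST2 expression and is known for Treg fitness at inflamed barriers. Batf and Irf4 bind composite AP-1 and IRF sites together and drive effector Treg differentiation, and Prdm1, which encodes the repressor Blimp-1, acts with Irf4 in the expression of Il10. Pparg and Rora encode nuclear receptors, of which the first is known for the Tregs of visceral fat and the second for those of skin. Maf, which encodes c-Maf, is known for Il10 and for Tregs of the gut, and Nfil3 is a bZIP repressor that is induced in effector Tregs.

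The 67 libraries with over 1000000 counts were kept, and they held 1304560 to 2759926 counts with a median of 2039002. Blood ST2+ Tregs of mouse 1 and colon ST2+ Tregs of mice 2 and 5 fell under that depth, so that these groups had 4 and 3 libraries and the others had 5. Levels are CPM, that is counts per 1000000 counts of the library, scaled with trimmed mean of M-values (TMM) factors, a level of 1 CPM being about 2 counts at the median depth. The 6 Treg markers looked at (Foxp3, Il2ra, Ctla4, Ikzf2, Cd4 and Cd3e) were detected in each of the 14 groups, with Foxp3 means between 139 and 381 CPM. Il1rl1 followed the sort. Its group means were 275 to 1457 CPM in ST2+ and 1.08 to 118 CPM in ST2- CD44hi Tregs, and the libraries of the 2 populations did not overlap in any tissue. The ST2- CD44hi libraries of skin held 23.9 to 195 CPM of Il1rl1, with the highest mean of the ST2- groups and a range that overlapped that of colon (0 to 60.6 CPM).

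Markers of other cells were present in 7 kept libraries that stood apart, with a summed level of a marker list over 500 CPM and over 5 times the median of the other libraries of the group. These were VAT ST2- of mouse 3 (B and plasma cell genes, 970 CPM), VAT ST2+ of mouse 5 (B and plasma cell genes, 1296 CPM), colon ST2- of mouse 2 (fibroblast genes, 677 CPM, and colon epithelium genes, 1293 CPM), skin ST2- of mouse 4 (fibroblast genes, 705 CPM) and of mouse 3 (keratinocyte genes, 1334 CPM), and skin ST2+ of mouse 3 (keratinocyte genes, 1608 CPM) and of mouse 4 (mast cell genes, 617 CPM). In colon such markers were not limited to 1 library. The 6 B and plasma cell genes, with Jchain as the most abundant, summed to 1212 to 1762 CPM in colon ST2- and 217 to 1998 CPM in colon ST2+ libraries, against 74.8 to 114 CPM in spleen ST2- CD44hi. The 10 myeloid genes, with Lyz2 as the most abundant, summed to 1247 to 1508 CPM in colon ST2+ and 31.8 to 270 CPM in colon ST2- libraries. The 5 fibroblast genes, led by Dcn, summed to 305 to 970 CPM (median 768) in colon ST2+ and 6.82 to 677 CPM (median 204) in colon ST2- libraries, and the 7 colon epithelium genes to 221 to 1886 CPM (median 547) and 67.0 to 1293 CPM (median 185). Counts of called ST2 differences, interactions and tissue differences without these 7 libraries or without colon are given beside the counts over all libraries.

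On the GRCm38 build (GENCODE M21), Gata3 (ENSMUSG00000015619) lies at chr2:9857078-9890034 on the minus strand, Batf (ENSMUSG00000034266) at chr12:85686669-85709087 on the plus strand, and Irf4 (ENSMUSG00000021356) at chr13:30749226-30766976 on the plus strand. Prdm1 (ENSMUSG00000038151) lies at chr10:44437177-44528501 on the minus strand, Pparg (ENSMUSG00000000440) at chr6:115360951-115490399 on the plus strand, and Rora (ENSMUSG00000032238) at chr9:68653786-69388246 on the plus strand. Maf (ENSMUSG00000055435) lies at chr8:115682942-115707794 on the minus strand and Nfil3 (ENSMUSG00000056749) at chr13:52967209-52981073 on the minus strand. Reads were counted over the exons of a gene. Gata3 shares 232 exonic bases with 9230102O04Rik and Gm13256, Rora shares 82 with Gm15511 and Maf shares 440 with Gm15655, and since the library kit does not mark strand, reads in those bases cannot be assigned to 1 gene with certainty. Over the kept libraries, the genes overlapping Gata3 held 186 counts against its 35923, Gm15511 held 2284 against 84123 for Rora, and Gm15655 held 0.

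To show which promoters of the set carry motifs known for families of transcription factors to which its members belong, and for STAT factors, the 250 bases before the start of each promoter entry in RefSeq (GRCm38.p6) were searched on both strands for 6 motifs. 7 of the 8 genes had an entry, with 9 entries in all, and Maf had none. AGATAA, a motif of the family of Gata3, was held by 9.99% of 32851 promoters in windows of the same length. TGANTCA, the AP-1 motif of the family of Batf, was held by 6.75%. The IRF motif, a G and 3 A repeated after any 2 bases, was held by 2.98%, and TTANGTAA, known for NFIL3, by 2.06%. AGGTCA, the hexamer of nuclear receptors such as Pparg and Rora, was held by 14% and the STAT motif TTCNNNGAA by 7.02%. None of the motifs contains another. 5 entries held a match and 4 held none, and the 5 are shown, in windows of 100 bases read 5′ to 3′ on the strand of the gene. Capitals mark the match. It is AGATAA on the opposite strand 245 bases before the start of Batf, TGANTCA 48 bases before that of Prdm1, AGGTCA 28 and 9 bases before 2 starts of Pparg, and AGGTCA on the opposite strand 12 bases before that of Nfil3. These starts are those of the promoter entries, and the bases that follow each start in its entry were found in an annotated transcript of the gene. The matches of Prdm1, Pparg and Nfil3 lie inside the spans given above for these genes.
Batf, chr12:85686470-85686569, plus strand: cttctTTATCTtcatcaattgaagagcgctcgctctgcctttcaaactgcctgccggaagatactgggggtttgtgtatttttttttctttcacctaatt
Prdm1, chr10:44458749-44458848, minus strand: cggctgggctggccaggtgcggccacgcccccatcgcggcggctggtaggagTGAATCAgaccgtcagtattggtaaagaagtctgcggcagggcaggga
Pparg, chr6:115361044-115361143, plus strand: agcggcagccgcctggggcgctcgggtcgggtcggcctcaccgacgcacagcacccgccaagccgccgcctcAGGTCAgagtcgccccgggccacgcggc
Pparg, chr6:115362249-115362348, plus strand: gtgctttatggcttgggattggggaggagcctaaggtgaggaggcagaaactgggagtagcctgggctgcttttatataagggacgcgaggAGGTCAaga
Nfil3, chr13:52981040-52981139, minus strand: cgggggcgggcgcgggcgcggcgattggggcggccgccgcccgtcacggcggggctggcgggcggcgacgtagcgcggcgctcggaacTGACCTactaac
A match of this kind is a description of the letters, and the data hold no measurement of binding.

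All 8 genes were among the 13173 protein-coding genes tested. Per kilobase of exon, the mean level over the kept libraries was highest for Batf (135 CPM per kb) and Nfil3 (121), followed by Gata3 (68.3), Rora (51.9), Maf (27.9), Prdm1 (20.6), Irf4 (19.97) and Pparg (12.2). Pparg had no count in 25 libraries and Irf4 had none in 3, while the other 6 genes had at least 1 count in each kept library. The genes differed in how far their group means spread. The highest group mean of Rora was 60.5 times the lowest, and the ratio was 51.8 for Prdm1, 47.6 for Nfil3, 47.1 for Maf and 37.6 for Irf4, but 5.92 for Batf and 5.56 for Gata3. Thus the means of Batf and Gata3 over the 14 groups stayed within an order of magnitude, and those of the other genes did not.

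**Figure D1:**
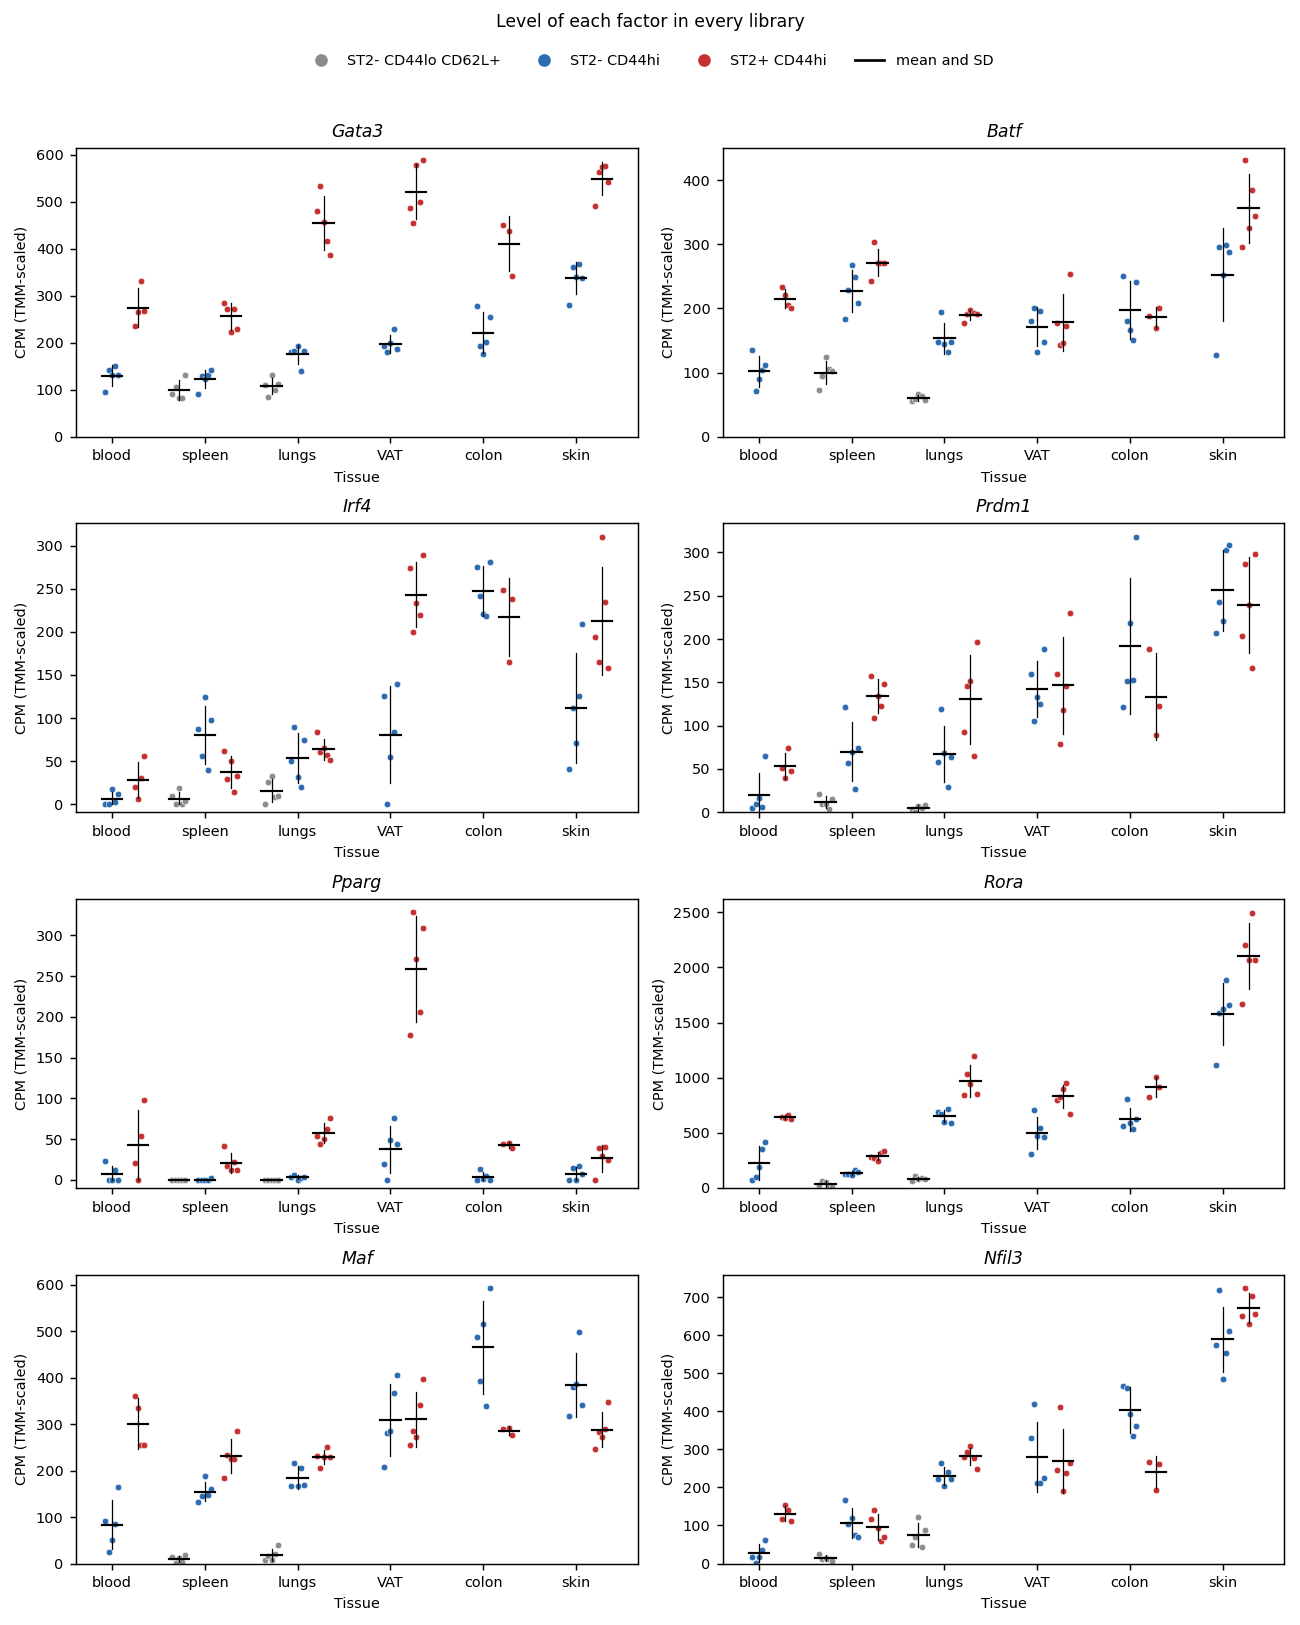
Level in CPM of each of the 8 genes in every kept library (points) with the group mean and SD (bar and whisker, cut at 0 where the SD exceeds the mean), by tissue and population, each panel with its own axis. Gata3 is higher in the ST2+ than in the ST2- CD44hi libraries of each tissue, Rora and Nfil3 reach their highest means in skin, and Pparg stands out in VAT ST2+ libraries, at 178 to 328 CPM.

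ST2+ and ST2- CD44hi Tregs of the same tissue were compared first, which asks how far these factors go with ST2 among effector Tregs. Gata3 was higher in ST2+ Tregs of each of the 6 tissues. In blood its level was 235, 265, 332 and 267 CPM in the 4 ST2+ libraries against 94.3, 142, 132, 150 and 132 CPM in the ST2- libraries. In VAT the ST2+ libraries of mice 1 to 5 held 487, 456, 578, 500 and 590 CPM and the ST2- libraries 194, 180, 201, 229 and 186 CPM. In skin the ST2+ libraries held 492, 563, 574, 577 and 543 CPM and the ST2- libraries 281, 361, 341, 368 and 338 CPM. The libraries of the 2 populations did not overlap in any of the 6 tissues, and Gata3 was higher in the ST2+ library in 27 of 27 same-mouse pairs. In bulk libraries of this kind, more cells with the transcript and more transcript per cell cannot be told apart.

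The log2 fold change of Gata3, by the quasi-likelihood test of edgeR with Benjamini-Hochberg adjustment, was 1.40 ± 0.13 (SE) in VAT (adjusted p = 1.14e-11), 1.37 ± 0.13 in the lungs (5.01e-11), 1.08 ± 0.14 in the blood (2.65e-07), 1.06 ± 0.13 in the spleen (4.46e-07), 0.90 ± 0.15 in the colon (0.000378) and 0.70 ± 0.13 in the skin (0.00363). A gene was called where the fold change reached 1.5 and the adjusted p did not exceed 0.05. In colon the call rested on mouse 3, without which the difference was 0.76 and the adjusted p 0.354. In colon fitted alone it was 0.87 with an adjusted p of 0.134. In skin the difference was 0.71 without the libraries that bore markers of other cells, with an adjusted p of 0.0835. The mast cell genes, at 617 CPM in the skin ST2+ library of mouse 4, were at 0 in the other 4 libraries of that group. The 8 keratinocyte genes, led by Krt14, summed to 102 to 1608 CPM (median 263) in skin ST2+ and 30.3 to 1334 CPM (median 109) in skin ST2- libraries. In colon, the myeloid, fibroblast and epithelial genes had higher medians in ST2+ libraries as given above. The part of these transcripts in the differences was not tested.

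Pparg, the receptor that governs lipid uptake genes, was at 0 to 22.8 CPM in the ST2- CD44hi libraries outside VAT and was detected in all ST2+ libraries but 2. In spleen the ST2+ libraries of mice 1 to 5 held 41.7, 17.4, 12.1, 22.2 and 12.3 CPM, and of the ST2- libraries that of mouse 5 held 1.76 CPM (5 counts) and the other 4 held 0. In lungs the ST2+ libraries held 53.8, 44.5, 50.2, 62.9 and 76.4 CPM and the ST2- libraries 3.88, 6.52, 0, 2.09 and 3.08 CPM. In VAT the ST2+ libraries held 178, 328, 272, 206 and 309 CPM and the ST2- libraries 19.6, 0, 48.9, 75.7 and 43.8 CPM. The ST2- libraries of VAT came from 220, 93, 192, 118 and 135 sorted cells, and the ST2+ libraries from 220 each. In colon the 3 ST2+ libraries held 44.1, 45.7 and 39.0 CPM and the ST2- libraries 0, 13.4, 0.649, 4.23 and 0 CPM. The 2 populations did not overlap in these 4 tissues, and Pparg was higher in ST2+ in 25 of 27 same-mouse pairs and lower in 0, the others being at 0 in both libraries.

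In spleen the ST2- mean (0.351 CPM) was under the level of 3 counts per library (1.26 CPM), and the ST2+ mean (21.1 CPM) was at least 16.7-fold higher than that limit. The fitted log2 fold change there, whose size depends on the prior count and on 1 library, was 5.57 ± 1.35. The test called Pparg in spleen (adjusted p = 0.0449) but not in lungs (4.25 ± 1.14, 0.0504), VAT (2.78 ± 0.99, 0.106), blood (2.58 ± 1.05, 0.159), colon (3.54 ± 1.18, 0.540) or skin (1.80 ± 1.03, 0.691). The call in spleen was lost when any of the mice was left out, with adjusted p between 0.106 and 0.466. With mouse as a block, lungs passed the test (4.35, adjusted p = 0.0431). In VAT the 8 adipocyte genes, of which Fabp4 was the most abundant, summed to 10.6 to 30.7 CPM in ST2+ and 0.636 to 208 CPM in ST2- libraries, and the adipocyte genes Adipoq, Cidec and Lep were at 0 in both groups. The median sums were 18.9 and 7.87 CPM, and the 10 myeloid genes, led by Lyz2, summed to 80.4 to 279 CPM (median 186) in ST2+ and 0 to 117 CPM (median 65.9) in ST2- libraries of VAT. In colon the myeloid, fibroblast and epithelial genes had higher medians in ST2+ libraries, as given above. The part of such transcripts in the VAT and colon differences was not tested.

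Rora, which encodes the nuclear receptor RORα, was higher in ST2+ in 27 of 27 same-mouse pairs, and the 2 populations did not overlap in blood, spleen, lungs and colon. In blood the ST2+ libraries held 644, 634, 663 and 624.5 CPM, close to each other, whereas the ST2- libraries of mice 1 to 5 held 71.5, 96.3, 187, 353 and 420 CPM. That difference was called (1.51 ± 0.30, adjusted p = 0.000679). It missed the threshold when blood was fitted alone (1.52, adjusted p = 0.134) and when all 70 libraries were used (1.23, 0.0514). In spleen Rora was 242 to 332 CPM in ST2+ and 120 to 165 CPM in ST2- libraries, a log2 difference of 1.08 ± 0.29 that was not called (adjusted p = 0.0802) but passed with mouse as a block (1.08, 0.0458). In VAT the difference was 0.74 ± 0.28 (adjusted p = 0.130).

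Maf, Nfil3 and Batf were called in blood and in no other tissue. The blood ST2+ libraries of mice 2 to 5 came from 202, 55, 220 and 220 sorted cells. Maf was at 361, 334, 255 and 255 CPM in the blood ST2+ libraries and at 92.6, 25.0, 51.2, 85.2 and 164 CPM in the ST2- libraries (log2 fold change 1.85 ± 0.31, adjusted p = 4.56e-05). Nfil3 was at 117, 154, 142 and 111 CPM in ST2+ against 18.0, 1.25, 18.0, 36.7 and 63.2 CPM in ST2- libraries (2.26 ± 0.34, 7.26e-06). Batf was at 234, 222, 205 and 201 CPM against 135, 70.7, 89.7, 104 and 111 CPM (1.07 ± 0.17, 3.14e-05). For each of the 3 genes the lowest ST2+ library lay above the highest ST2- library. The call of Nfil3 was lost when blood was fitted alone (2.27, adjusted p = 0.141). Other cells' genes also differed in blood. The 10 myeloid genes, led by Lyz2, summed to 49.0 to 132 CPM (median 95.6) in ST2+ and 10.53 to 88.8 CPM (median 41.3) in ST2- libraries, with Csf1r, Adgre1, C1qa and Spi1 at 0 in both. The 6 B and plasma cell genes, led by Cd79b, summed to 59.4 to 180 CPM (95.9) and 32.0 to 91.3 CPM (42.9), and the 5 erythroid genes, led by Hbb-bs, to 12.8 to 405 CPM (216) and 2.19 to 572 CPM (22.4). The 4 endothelial genes, of which Pecam1 was the most abundant and Cdh5 and Kdr were at 0, were lower in ST2+ (158 to 222 CPM) than in ST2- libraries (237 to 351 CPM). In blood the 7 colon epithelium genes, led by Epcam, summed to 14.9 to 55.6 CPM in ST2+ and 0.439 to 25.0 CPM in ST2- libraries. The medians were 35.1 and 11.2 CPM. These sums did not overlap in spleen (122 to 186 against 40.2 to 87.5 CPM) or lungs (37.4 to 74.4 against 0.647 to 23.3 CPM). The part of these lists in the ST2 differences of blood, spleen and lungs was not tested. Over the 6 tissues the ST2+ library was the higher in 22 of 27 same-mouse pairs for Batf, 17 for Nfil3 and 16 for Maf. Batf was higher in 5 of 5 pairs in spleen and in skin and in 4 of 5 in lungs. Maf was higher in 5 of 5 in spleen and in 4 of 5 in lungs, and Nfil3 in 5 of 5 in lungs and in skin. Maf was lower in 4 of 5 pairs in skin and Nfil3 in 4 of 5 in spleen, and in colon both were lower in 3 of 3. In VAT each of the 3 genes was higher in 2 pairs and lower in 3. In colon, Maf was at 276 to 293 CPM in ST2+ and 339 to 593 CPM in ST2- libraries and Nfil3 at 193 to 268 CPM and 334 to 467 CPM, with ST2- libraries above ST2+ libraries in both, and neither difference was called (adjusted p = 0.965 and 0.963).

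Irf4 and Prdm1 were not called between ST2+ and ST2- Tregs of any tissue. Irf4 in VAT was at 199 to 290 CPM in ST2+ libraries and at 126, 0, 55.2, 84.2 and 139 CPM in the ST2- libraries of mice 1 to 5, without overlap (1.58 ± 0.60, adjusted p = 0.132). These ST2- libraries came from 220, 93, 192, 118 and 135 sorted cells, and the ST2+ libraries of VAT from 220 each. Over the 6 tissues Irf4 was higher in ST2+ in 16 of 27 same-mouse pairs, and Prdm1 in 19. In spleen the values of Irf4 ran the other way, at 14.5 to 62.1 CPM in ST2+ and 39.4 to 124 CPM in ST2- libraries, with overlap, and Irf4 was lower in ST2+ in 5 of 5 same-mouse pairs. Prdm1 was higher in ST2+ in 5 of 5 pairs in spleen and in lungs. Prdm1 in blood was at 51.6, 39.9, 74.2 and 47.4 CPM in ST2+ and at 5.26, 9.38, 17.1, 5.61 and 64.9 CPM in ST2- libraries, where the ST2- library of mouse 5 overlapped the ST2+ group. The difference of Prdm1 in blood (1.40 ± 0.45, adjusted p = 0.0543) passed with mouse as a block (1.67, adjusted p = 0.00803).

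In all, 11 of the 48 comparisons of a gene in a tissue were called higher in ST2+ Tregs by the edgeR test and 0 lower. DESeq2 called 13 higher, voom 20 and the newer quasi-likelihood method of edgeR 18. There were 2 lower at an unadjusted p under 0.05 (Maf and Nfil3 in colon), 0 lower by DESeq2 and 1 lower by voom. Blood held 5 of the 11 called genes, against 2.25% of all tested genes called higher and 1.79% lower there. Spleen held 2, against 0.311% higher and 0.00759% lower. Lungs, VAT, colon and skin held 1 each, against 0.501%, 1.27%, 0.0304% and 0.0835% of tested genes called higher and 0.281%, 1.85%, 0.038% and 0.129% called lower. Counted by libraries that did not overlap, blood had 5 genes higher (2.71% of tested genes), spleen 3 (1.31%), lungs 3 (2.04%), VAT 3 (1.92%), colon 3 (3.67%) and skin 1 (0.827%), and colon had 2 lower (2.0%). The other tissues had 0 lower, against 2.43% of tested genes for blood, 1.12% for spleen, 1.61% for lungs, 1.42% for VAT and 0.592% for skin. Without the 7 libraries that bore markers of other cells 9 comparisons were called, the calls lost being Gata3 in skin and Pparg in spleen (5.58, adjusted p = 0.0595). Without colon 9 of 40 were called.

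**Figure D2:**
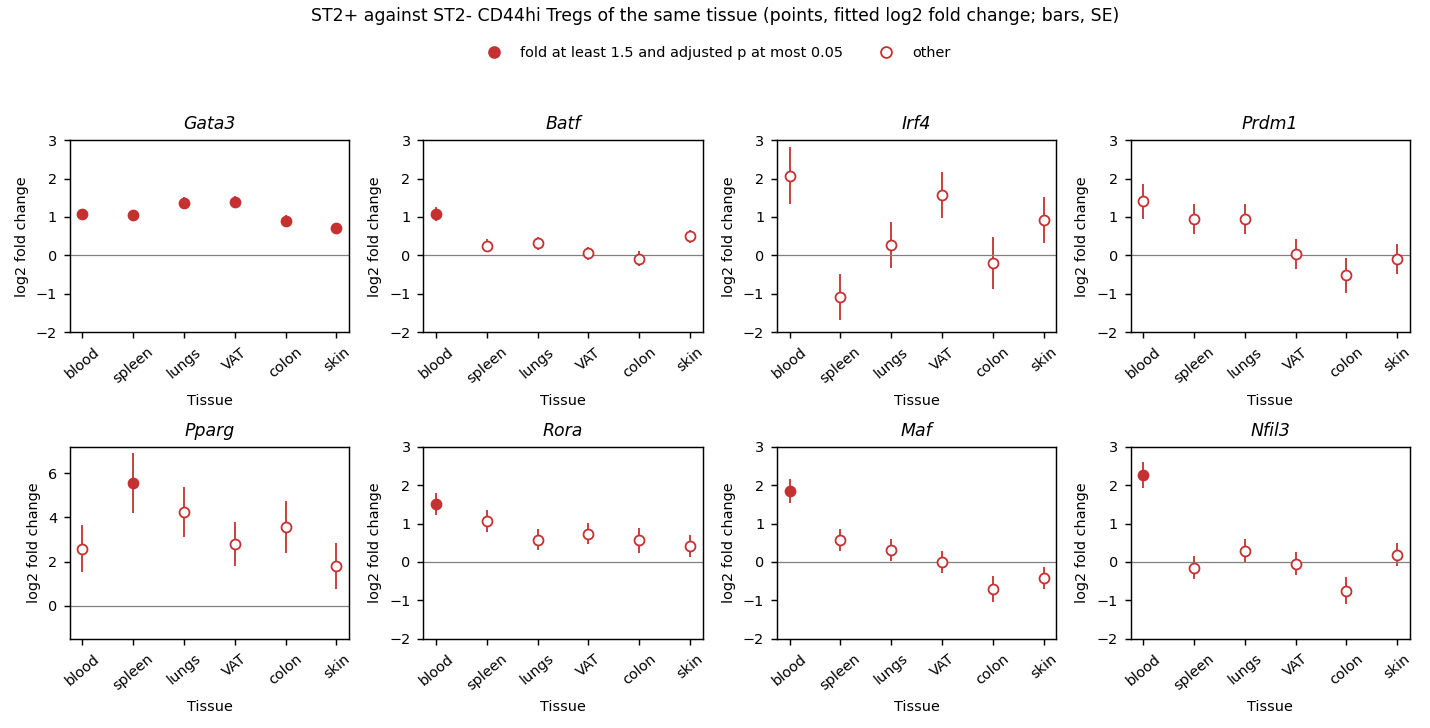
Log2 fold change of ST2+ over ST2- CD44hi Tregs with its SE for each gene (panels) in each tissue, with called differences filled, and Pparg on an axis range of its own. Gata3 is called in 6 of 6 tissues, and Maf, Nfil3 and Batf are called in blood, where their differences are 1.85, 2.26 and 1.07.

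Whether the difference itself varied among tissues was tested as the interaction of tissue and ST2 over the 6 tissues, which was called in 3 of the 8 genes and in 1.43% of tested genes. These were Nfil3 (F = 9.06, adjusted p = 0.00128), Maf (F = 8.55, 0.00176) and Batf (F = 5.33, 0.0362). In each of them the ST2 difference of blood exceeded the mean of the other 5 tissues, by 2.35 on the log2 scale for Nfil3 (adjusted p = 0.000152), 1.89 for Maf (0.000953) and 0.87 for Batf (0.0082), a contrast in which 1.15% of tested genes were called. The interaction of Gata3 was not called (adjusted p = 0.102), but was by DESeq2 (0.0224) and by the newer quasi-likelihood method (0.0343), and its difference in skin against the mean of the other tissues (-0.46 on the log2 scale) was not called either (0.197, with 0.205% of tested genes called). Those of Irf4 (0.206) and Prdm1 (0.234) were not called, but were by the newer quasi-likelihood method (0.00631 and 0.0288). Prdm1 was also called without mouse 5 (0.0387). The 3 interaction calls depended on mouse 3, whose blood ST2+ library came from 55 sorted cells. Without mouse 3 the interaction had an adjusted p of 0.120 for Nfil3, 0.122 for Maf and 0.366 for Batf. Batf was also not called without mouse 2 (0.350), mouse 4 (0.197) or mouse 5 (0.0701) or with mouse as a block (0.0528), with all 70 libraries (0.220), with the number of sorted cells in the fit (0.116) or without colon (0.0614). The interaction was called in 2 of the 8 genes without colon and in 3 without the 7 libraries that bore markers of other cells.

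Tissues were then compared with spleen, separately in ST2+ and in ST2- CD44hi Tregs, to describe which factors go with the tissue. The 5 comparisons of a population share its spleen libraries. Rora, known for its role in skin Tregs, rose most widely, in 5 of 5 tissues in ST2+ and 4 of 5 in ST2- Tregs. Its ST2+ libraries held 285, 273, 242, 314 and 332 CPM in spleen and 1668, 2206, 2067, 2497 and 2066 CPM in skin. Its ST2- libraries held 126, 128, 120, 165 and 147 CPM in spleen and 1117, 1591, 1625, 1885 and 1657 CPM in skin. In both populations the lowest skin library lay above each library of the other 5 tissues, the highest of which were 1195 CPM in lung ST2+ and 805 CPM in colon ST2- Tregs. The log2 fold change of skin over spleen was 2.86 ± 0.30 in ST2+ (adjusted p = 8.29e-12) and 3.52 ± 0.31 in ST2- Tregs (1.67e-14). In the lungs it was 1.75 ± 0.29 and 2.25 ± 0.29, and in the colon 1.66 ± 0.31 and 2.18 ± 0.29. In blood ST2+ Tregs Rora was called higher than in spleen (1.15 ± 0.29, adjusted p = 0.0112), a call lost without mouse 2 (1.12, adjusted p = 0.0555), mouse 3 (1.11, 0.125) or mouse 4 (1.17, 0.0531) and with all 70 libraries (0.85, 0.187).

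Nfil3 was called higher than in spleen in lungs, VAT, colon and skin of both populations and lower in blood ST2- Tregs. Its spleen libraries held 118, 140, 93.7, 59.4 and 68.8 CPM in ST2+ and 168, 103, 119, 75.0 and 69.6 CPM in ST2- Tregs. In skin the libraries held 651, 724, 629, 704 and 655 CPM in ST2+ and 574, 720, 485, 554 and 612 CPM in ST2- Tregs. The groups of skin and spleen were far apart, by 2.81 ± 0.32 on the log2 scale in ST2+ (adjusted p = 1.05e-10) and 2.46 ± 0.31 in ST2- Tregs (2.89e-09). Blood ST2- Tregs were 1.96 ± 0.33 lower than spleen ST2- Tregs (log2 fold change -1.96, adjusted p = 3.34e-05), with the library of mouse 2 at 1.25 CPM. The calls in lung ST2- (1.11, adjusted p = 0.0159) and colon ST2+ Tregs (1.33, 0.00617) rested on single mice, with 0.99 and an adjusted p of 0.156 for the lungs and 1.14 and 0.09998 for colon without mouse 4. The lung call was also lost without mouse 3 (1.198, adjusted p = 0.0569) or mouse 5 (1.01, 0.0751) and with all 70 libraries (1.10, 0.110).

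Gata3 was called higher than in spleen in VAT, colon and skin of both populations, and in lungs of ST2+ Tregs. In ST2- Tregs it rose from 90.1, 129, 123, 132 and 141 CPM in spleen to 281, 361, 341, 368 and 338 CPM in skin (1.46 ± 0.13, adjusted p = 1.31e-13). In ST2+ Tregs it rose from 284, 271, 223, 273 and 229 CPM in spleen to 481, 534, 456, 417 and 387 CPM in lungs (0.83 ± 0.13, 4.53e-06) and to the VAT and skin levels given above (1.03 ± 0.13, 1.38e-08, and 1.10 ± 0.13, 6.27e-10). Except for that of mouse 1, the skin ST2- libraries lay above all 5 ST2+ libraries of spleen, the highest of which held 284 CPM. The call in colon ST2+ Tregs (0.68, adjusted p = 0.000998) was lost without mouse 3 (0.56, 0.0791).

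Markers of resident cells went with the tissue. The keratinocyte genes given above for skin summed to 4.93 to 17.0 CPM in spleen ST2+ and 4.49 to 16.7 CPM in spleen ST2- libraries, and the fibroblast genes had medians of 71.5 and 97.1 CPM in skin ST2+ and ST2- libraries against 0 and 0.837 CPM in spleen. Without the 7 libraries that bore markers of other cells, Rora, Nfil3 and Gata3 were still called higher in skin, by 2.78, 2.82 and 1.06 on the log2 scale in ST2+ and by 3.41, 2.57 and 1.41 in ST2- Tregs. The 5 lung epithelium genes, led by Sftpc, summed to 47.96 to 119.9 CPM in lung ST2+ and 37.5 to 102 CPM in lung ST2- CD44hi libraries and to 0 in the spleen libraries, and their part in the lung differences was not tested. The myeloid genes had medians of 186 and 65.9 CPM in VAT ST2+ and ST2- libraries against 4.13 and 9.21 CPM in spleen. For the adipocyte genes the medians were 18.9 and 7.87 CPM in VAT against 1.17 and 4.14 CPM in spleen. The part of both lists in the differences of VAT from spleen was not tested. In colon ST2+ and ST2- libraries the B and plasma cell genes had medians of 1617 and 1440 CPM, against 104 and 87.9 CPM in spleen. The fibroblast genes had medians of 768 and 204 CPM in colon. The part of these lists in the differences of colon from spleen was not tested for any of the genes.

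Irf4, Prdm1 and Maf differed from spleen in part of the tissues. Irf4 was called higher in ST2+ Tregs of VAT (2.68 ± 0.63, adjusted p = 0.00161), colon (2.52 ± 0.68, 0.00981) and skin (2.48 ± 0.62, 0.0014), where libraries held 199 to 290, 165 to 248 and 158 to 310 CPM against 14.5 to 62.1 CPM in spleen. Without mouse 4 the colon call was lost (2.24, adjusted p = 0.0960). In ST2- Tregs Irf4 was called lower in blood, where libraries held 0, 0.625, 17.5, 3.06 and 11.7 CPM against 86.8, 55.7, 124, 39.4 and 97.7 CPM in spleen (-3.60 ± 0.72, adjusted p = 0.000567), and in colon it held 218 to 281 CPM (1.62 ± 0.60, 0.0632, and 1.69, 0.0473 with mouse as a block). Prdm1 was called in ST2- Tregs, higher in skin (1.87 ± 0.40, adjusted p = 0.000175) and colon (1.45 ± 0.40, 0.00905) and lower in blood (-1.80 ± 0.43, 0.00515). Its libraries held 207 to 308 CPM in skin, 121 to 318 CPM in colon, 5.26 to 64.9 CPM in blood and 26.9 to 122 CPM in spleen, so that skin lay above spleen without overlap and blood overlapped it. The colon call of Prdm1 was lost without mouse 3 (1.39, adjusted p = 0.0768), and the blood call without mouse 1 (-1.25, 0.144) or mouse 3 (-1.76, 0.0637) and by voom (-2.10, 0.0607). With mouse as a block, Prdm1 was also called lower in blood ST2+ Tregs (-1.26, adjusted p = 0.0429). The B and plasma cell genes, given above for colon and spleen, were higher in colon ST2- libraries than in spleen, and their part in the colon differences of Irf4 and Prdm1 was not tested.

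Maf was not called against spleen in ST2+ Tregs, whose libraries held 183 to 398 CPM over the 6 tissues. In ST2- Tregs it was called higher in colon (1.59 ± 0.29, adjusted p = 4.61e-05), skin (1.31 ± 0.29, 0.00024) and VAT (0.998 ± 0.29, 0.0211). Its ST2- libraries held 132, 145, 188, 148 and 161 CPM in spleen, 487, 394, 516, 339 and 593 CPM in colon and 317, 381, 386, 498 and 342 CPM in skin. Spleen was below both tissues without overlap. The part of the colon markers of other cells, given above, in the colon difference of Maf was not tested. The VAT call was lost without mouse 3 (1.11, adjusted p = 0.0537) or mouse 4 (0.91, 0.141) and when the number of sorted cells entered the fit (0.87, 0.0906). In blood ST2- Tregs the difference of Maf (-0.89 ± 0.29, adjusted p = 0.0696) passed with mouse as a block (-0.95, 0.0251).

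Batf was never called higher than in spleen. It was lower in blood ST2- Tregs, at the levels given above against 184, 229, 267, 249 and 208 CPM in spleen (-1.15 ± 0.17, adjusted p = 1.91e-06), without overlap. It was also lower in VAT ST2+ Tregs, at 177, 142, 147, 173 and 253 CPM against 242, 303, 270, 271 and 271 CPM (-0.61 ± 0.16, adjusted p = 0.00697), where the library of mouse 5 overlapped the spleen group and the call was lost without mouse 2 (-0.49, 0.0903) or mouse 3 (-0.53, 0.0821). Pparg was called higher than in spleen in VAT of both populations, by 3.61 ± 1.03 in ST2+ (adjusted p = 0.012) and 6.40 ± 1.36 in ST2- Tregs (0.00104), and in skin ST2- Tregs (4.08 ± 1.40, 0.0196). In ST2- Tregs these fitted folds stand against a spleen group with 5 counts in 1 of 5 libraries, and their size depends on that library and on the prior count. Against 3 counts per spleen library (1.26 CPM), the mean of VAT ST2- libraries (37.6 CPM) was at least 29.8-fold higher and that of skin ST2- libraries (7.73 CPM) at least 6.12-fold higher. The call in VAT ST2+ Tregs was lost without mouse 4 (3.70, adjusted p = 0.0682) or mouse 5 (3.40, 0.0851), and the call in skin without mouse 2 (3.49, 0.0707) or mouse 4 (3.28, 0.156).

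Over the 80 comparisons with spleen, 35 were called higher and 5 lower. In ST2+ Tregs blood had 1 gene called higher (1.98% of tested genes), lungs 3 (3.35%), VAT 5 (5.87%), colon 4 (8.62%) and skin 4 (14.4%), and 1 was lower in VAT (5.34%). In ST2- Tregs lungs had 2 called higher (3.2%), VAT 5 (4.26%), colon 5 (8.62%) and skin 6 (16.7%), and 4 were lower in blood (1.72%). In directions without a call of these genes, the share of tested genes called was, for lower in ST2+ Tregs, 2.13% (blood), 1.53% (lungs), 1.78% (colon) and 14.6% (skin). In ST2- Tregs it was 1.65% for higher in blood, and for lower 0.827% (lungs), 1.53% (VAT), 2.42% (colon) and 14.1% (skin). Without the 7 libraries that bore markers of other cells the counts were 35 and 5 as well, and without colon 26 and 5 of 64.

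**Figure D3:**
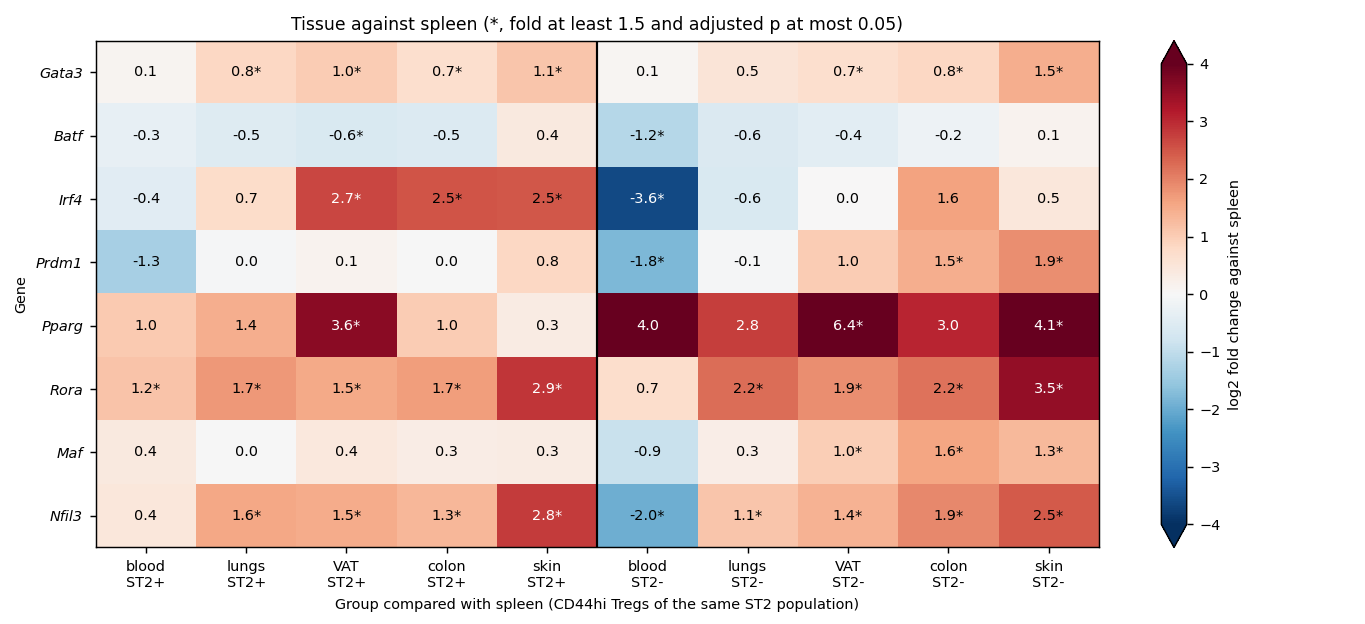
Log2 fold change of each tissue over spleen for the 8 genes (rows), in ST2+ and ST2- CD44hi Tregs (panels), with called comparisons marked and the colour scale ending at 4, which Pparg passes in ST2- Tregs. Rora and Nfil3 are higher across lungs, VAT, colon and skin, and 4 genes are lower in blood ST2- Tregs.

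Set against blood and spleen together, the mean of lungs, VAT, colon and skin was called higher for 5 of the 8 genes in ST2+ Tregs (9.48% of tested genes) and for 6 in ST2- Tregs (9.99%), and lower for 0 in either (6.9% and 7.2%), also at an unadjusted p under 0.05 and by DESeq2 and voom. In ST2+ Tregs these were Irf4 (2.32 ± 0.44, adjusted p = 3.75e-05), Nfil3 (1.57 ± 0.21, 1.7e-08), Rora (1.37 ± 0.19, 7.24e-08), Prdm1 (0.90 ± 0.27, 0.00937) and Gata3 (0.86 ± 0.09, 7.13e-12). In ST2- Tregs they were Nfil3 (2.70 ± 0.21, 4.23e-16), Irf4 (2.17 ± 0.43, 7.82e-05), Rora (2.09 ± 0.19, 7.86e-14), Prdm1 (1.97 ± 0.27, 3.17e-08), Maf (1.48 ± 0.19, 3.68e-09) and Gata3 (0.83 ± 0.08, 3.22e-12). The differences of the 2 populations were not tested against each other. Batf and Pparg were called in neither, and Prdm1 in ST2+ Tregs was not called without mouse 3 (0.89, adjusted p = 0.0658). The median log2 fold change of the 8 genes was 0.99 in ST2+ and 2.02 in ST2- Tregs, beside 0.04 and 0.03 over all tested genes. Without colon, or without the 7 libraries with markers of other cells, 12 and 11 of the 16 comparisons were called.

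The CD44hi and CD44lo CD62L+ populations of ST2- Tregs in spleen and lungs were compared next, which sets effector against central Tregs within a tissue. Of the 8 genes, 6 were called higher in CD44hi Tregs of spleen (4.44% of tested genes) and 6 in those of lungs (4.84%), and 0 were called lower (0.592% and 0.691%), with 0 lower at an unadjusted p under 0.05 and by DESeq2 and voom as well. Maf differed most in spleen. Its spleen libraries held 132, 145, 188, 148 and 161 CPM in CD44hi and 14.7, 1.98, 12.4, 2.58 and 17.9 CPM in CD44lo Tregs (3.92 ± 0.35, adjusted p = 3.56e-13). Its lung libraries held 168, 217, 166, 205 and 170 CPM and 7.72, 16.1, 7.03, 19.95 and 39.1 CPM (3.35 ± 0.33, 6.76e-12). The 2 populations were far apart in both tissues.

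Prdm1 was 2.53 ± 0.44 higher in spleen (adjusted p = 2.57e-05) and 3.73 ± 0.49 in lungs (5.21e-08), where its CD44lo libraries held 0.502 to 7.98 CPM and its CD44hi libraries 29.7 to 119 CPM. Nfil3 was 2.90 ± 0.34 higher in spleen (3.89e-09) and 1.63 ± 0.31 in lungs (0.000121). Rora was 1.98 ± 0.31 higher in spleen (2.61e-06) and 2.95 ± 0.30 in lungs (3.05e-11), where 61.0 to 104 CPM in CD44lo stood against 584 to 712 CPM in CD44hi libraries. Batf was 1.19 ± 0.17 (2.61e-07) and 1.35 ± 0.17 higher (2.07e-08). Irf4 was called in spleen (3.55 ± 0.70, adjusted p = 0.000245), with 39.4 to 124 CPM in CD44hi and 9.89, 0.397, 19.0, 0 and 3.88 CPM in CD44lo libraries, and not in lungs (1.78 ± 0.65, 0.0993). Gata3 was called in lungs (0.70 ± 0.13, adjusted p = 0.00014), with 139 to 193 CPM against 85.3 to 131 CPM, and not in spleen, where its libraries held 90.1 to 141 and 82.1 to 132 CPM. Whether the differences of Irf4 and Gata3 differ between spleen and lungs was not tested. Markers of other cells also differed. In spleen the B and plasma cell genes summed to 74.8 to 114 CPM in CD44hi and 32.2 to 46.2 CPM in CD44lo libraries. The colon epithelium genes, led by Epcam, summed to 40.2 to 87.5 and 6.71 to 17.8 CPM there. The endothelial genes, with only Pecam1 detected, were lower in CD44hi libraries. They summed to 155 to 174 against 229 to 371 CPM in spleen and 170 to 258 against 294 to 398 CPM in lungs. The part of these lists was not tested.

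Pparg had 0 counts in all 10 CD44lo libraries, which allows a level of up to 1.12 to 1.64 CPM in each (3 counts, counting error only). In lungs the mean of the CD44hi libraries, 3.11 CPM, was at least 2.27-fold higher than that limit averaged over the CD44lo libraries, and in spleen the CD44hi mean was itself under the limit. With Pparg at that bound the median log2 fold change of the 8 genes in lungs was 1.70, and in spleen the median of the other 7 was 2.53, beside 0.01 over all tested genes in each tissue.

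**Figure D4:**
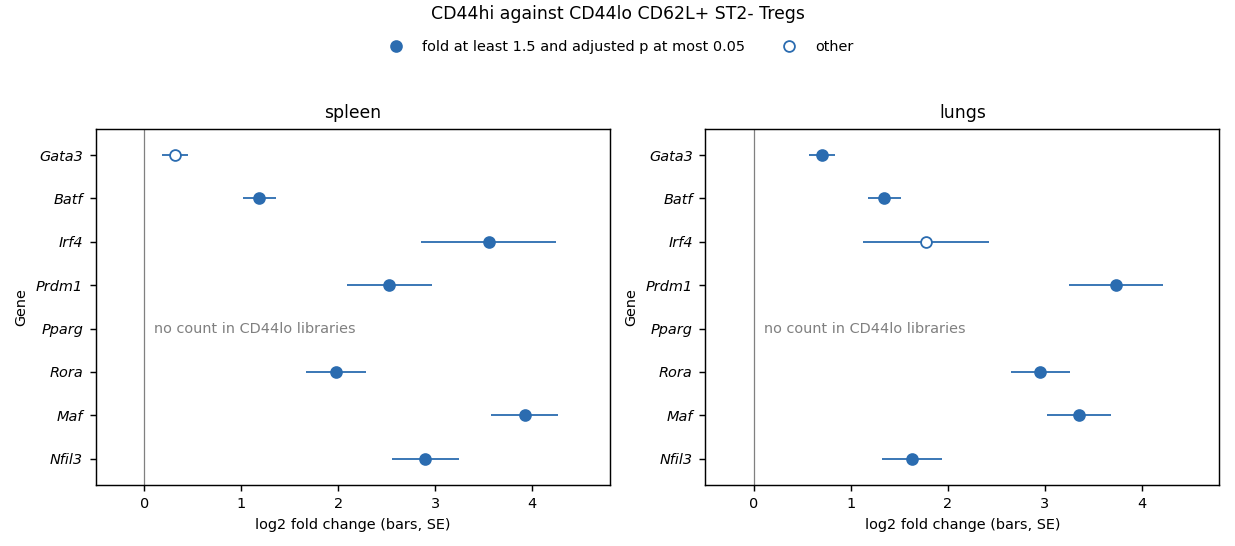
Log2 fold change of CD44hi over CD44lo CD62L+ ST2- Tregs with its SE for each gene (rows), in spleen and lungs (panels), with called differences filled. Pparg has a note in place of a point because it had no count in the CD44lo libraries. Maf differs most in spleen, where its libraries held 132 to 188 against 1.98 to 17.9 CPM, and Gata3 is not called in spleen.

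Central Tregs of lungs and spleen also differed. Nfil3 was higher in lung CD44lo Tregs, with 49.3, 68.8, 121, 44.6 and 87.4 CPM against 25.3, 12.3, 15.5, 11.4 and 6.21 CPM in spleen (2.38 ± 0.34, adjusted p = 8.21e-07), without overlap. Rora was higher as well, with 61.0 to 104 CPM against 4.27 to 59.1 CPM (1.27 ± 0.31, 0.00648). The lung epithelium genes summed to 45.2 to 219.9 CPM in these lung libraries and 0 in those of spleen, and the myeloid genes to 0 to 114 CPM (median 8.53) and 4.27 to 9.13 CPM (median 5.81), and their part was not tested. Batf was lower, with 55.2 to 66.5 CPM against 73.3 to 124 CPM (-0.73 ± 0.17, 0.00384). The other 5 genes were not called, the shares of tested genes being 2.12% higher and 1.04% lower. The Rora call was lost without mouse 4 (1.15, adjusted p = 0.0960) or mouse 5 (0.98, 0.0649) and with all 70 libraries (1.27, 0.101), and the Batf call without mouse 3 (-0.67, 0.0794).

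Ordered by mean log2 CPM over the 14 groups, Gata3, Batf, Rora and Nfil3 were highest in skin ST2+, Prdm1 in skin ST2-, Irf4 and Maf in colon ST2- and Pparg in VAT ST2+ Tregs. A CD44lo group was lowest for each gene in that order. By mean CPM, Irf4 was lowest in blood ST2- CD44hi Tregs (6.59 CPM, against 6.63 CPM in spleen CD44lo Tregs). Neighbours in that order, which are the closest groups by construction, seldom differed. Of 13 steps, 1 was called for each of Batf, Rora, Maf and Nfil3 and 0 for Gata3, Irf4, Prdm1 and Pparg. Of all 91 pairs of groups, 64 were called for Nfil3, 63 for Gata3, 62 for Rora, 46 for Batf, 45 for Maf, 44 for Irf4, 44 for Prdm1 and 40 for Pparg, beside a median of 7 pairs per tested gene and 12.9% of all tests of a gene in a pair. The called step of Batf lay between the CD44lo groups of lungs and spleen, that of Maf between central Tregs and blood ST2- CD44hi Tregs, that of Nfil3 between blood ST2- CD44hi and lung CD44lo Tregs, and that of Rora between the CD44lo groups of spleen and lungs.

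In the CD44hi libraries, the variance of log2 CPM was split among tissue, ST2, their interaction and mouse, as a description. For Gata3, ST2 held 53.7% and tissue 37.99%, and for Pparg ST2 held 39.95% and tissue 23.8%. In the other 6 genes tissue held the larger share, with 74.4% for Rora, 70.3% for Nfil3, 64.3% for Prdm1, 53.4% for Irf4, 50.015% for Batf and 45.1% for Maf. ST2 held 13.5% for Batf, 13.1% for Rora and between 1.82% and 5.12% for Nfil3, Maf, Irf4 and Prdm1. The interaction held 31.2% for Maf. The median over all tested genes was 27.9% for tissue, 1.15% for ST2 and 6.06% for mouse, and mouse held at most 5.36% in any of the 8 genes.

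**Figure D5:**
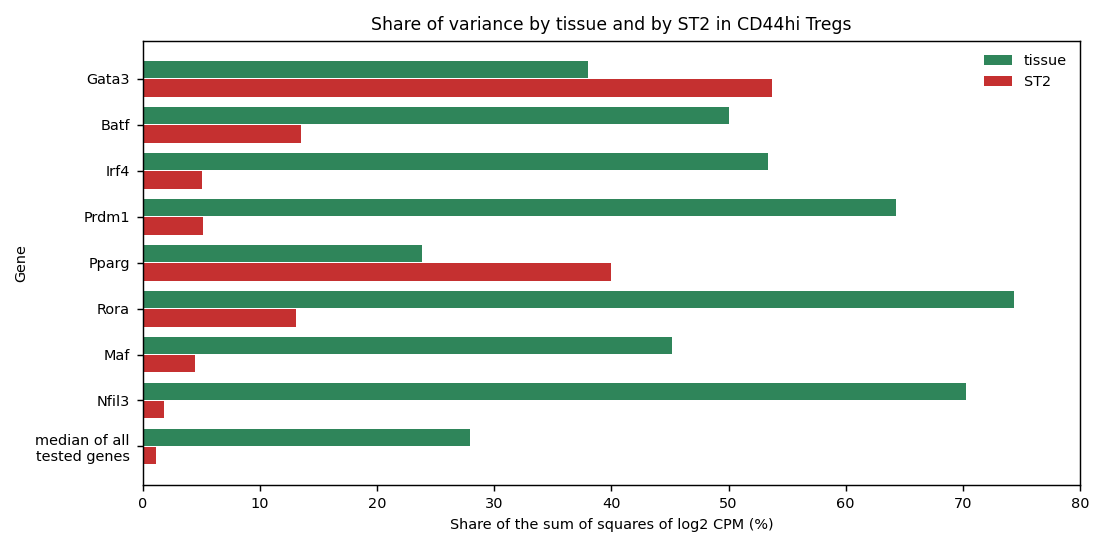
Percent of the variance of log2 CPM over the CD44hi libraries held by tissue and by ST2, for each of the 8 genes and as the median of all tested genes. ST2 is the larger share for Gata3 (53.7%) and Pparg (39.95%), and tissue for the other 6.

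The genes whose group means over the 14 groups were most like those of each factor were named by Pearson's r, among 9207 genes with a mean of at least 10 CPM. For Gata3 these were Rnf128 (0.961), Rab4a (0.960) and Il1rl1 (0.955), the last being the gene of the sort. For Irf4 they included Il10 (0.939) and Dynlt3 (0.923), and for Maf Dkkl1 (0.983), Cdkn2c (0.980) and Tigit (0.977). For Rora they were Sept2 (0.979), Ctla2a (0.976) and Id2 (0.974), for Nfil3 Cebpb (0.952), Hif1a (0.951) and Bag3 (0.950), and for Prdm1 Tmbim1 (0.978), Trp53i11 (0.971) and Aplp1 (0.971). For Batf they were Rilpl2 (0.953), Sacm1l (0.925) and Slc4a8 (0.921), and for Pparg Il10ra (0.921), Dok2 (0.897) and Cib2 (0.893). The groups share mice and scaling, and 7 of the 24 genes in the top 3 by r were also among the top 3 by Spearman's rho. Among the 28 pairs of the 8 factors, r of the group means was 0.462 to 0.904 with a median of 0.777. Between libraries of the same group, r of the deviations from the group mean was -0.139 to 0.444 with a median of 0.141. The first are means over libraries and the second single libraries, so that the values are not on an equal footing.

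Other genes of effector and central Tregs, in lists that were likewise chosen with earlier results known, were counted in the same comparisons. Genes named in this and the next paragraph were picked by smallest adjusted p, not by size of difference. The values beside them are log2 fold changes. In nonlymphoid ST2- Tregs, where 9.99% of tested genes were called higher and 7.2% lower, 15 of 16 tissue Treg effector genes were called higher, led by Areg (4.95), which encodes a growth factor for tissue repair, and the costimulatory receptor gene Icos (1.67), and 6 of 10 central Treg genes were called lower, led by the factor gene Lef1 (-1.55). In nonlymphoid ST2+ Tregs (9.48% and 6.9%) 11 effector genes were higher, led by Areg (3.83) and Il10 (4.17), and 5 central genes lower, led by Lef1 (-1.43). Of 20 relatives, partners and opponents of the factors, 18 were tested. In nonlymphoid ST2- Tregs 9 of them were higher, led by Junb (1.10) and Jund (0.98), AP-1 partners of Batf, and 2 lower, Bach2 (-1.86), a repressor that competes at AP-1 sites, and Dbp (-0.77), a bZIP activator at sites shared with Nfil3. In nonlymphoid ST2+ Tregs 8 were higher, led by Jund (1.07) and Junb (0.998), and 2 lower, Bach2 (-1.82) and Zfp683 (-2.999), a relative of Prdm1.

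In blood, which held 5 of the 11 ST2 calls, with 2.25% of tested genes called higher and 1.79% lower, 11 of 16 effector genes were higher in ST2+ Tregs, led by the activation receptor gene Klrg1 (5.33) and Areg (3.57). 4 of 10 central genes were lower, led by Satb1 (-2.27) and Ccr7 (-2.03), and Il7r was higher (0.66). Of the partners 1 was higher, Hlf (2.92), and 3 were lower, led by Bach2 (-2.22) and Mafk (-2.19). Between CD44hi and CD44lo Tregs of spleen (4.44% higher and 0.592% lower), 13 effector genes were higher, led by Tigit (6.79) and Icos (1.63), and 5 central genes lower, led by Satb1 (-2.20) and Klf2 (-0.91), while none of the 18 partners was called. In lungs (4.84% and 0.691%) 12 effector genes were higher, led by Tigit (3.89) and Cxcr6 (6.40), 3 partners were higher, led by Hlf (3.93), and 1 lower, Bach2 (-1.61). 2 central genes were lower there, Satb1 (-1.69) and Lef1 (-0.75).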

How the data were processed

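RNA of sorted Tregs was amplified (SMART-Seq v4), made into libraries with a tagmentation kit (Nextera XT) that does not mark strand, and sequenced as single reads. The submitters' processing notes name CASAVA 1.8.2, STAR, HTSeq 0.4.1 and the GRCm38 build, and the strand setting of the counting is not given in the sources used here. The deposited table holds raw counts per gene and library, which the authors left unscaled and unfiltered, and 0 columns of it were left unused. All 53465 gene IDs were taken from the table, and 53274 were found in GENCODE M21, 21865 of them protein-coding.

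Libraries of over 1000000 counts were kept (67 of 70, with 1304560 to 2759926 counts). The study set this minimum beside limits on the aligned share and on the evenness of coverage, which were not applied here, and no 2 libraries of a group were identical. The 13173 protein-coding genes that reached 1 CPM in 10% of these libraries or more were tested with TMM factors and the quasi-likelihood F-test of edgeR 4.0.16 (R 4.3.3), with the 14 groups in 1 fit and no term for mouse, as well as Benjamini-Hochberg adjustment over the tested genes. Log2 CPM used a prior count of 2. The scripts were tested on simulated data. Alternatives were voom with quality weights (limma 3.58.1), DESeq2 1.42.0, median-of-ratios factors, other filters, all 70 libraries, a covariate for how many cells were sorted, each tissue alone, each mouse left out and mouse as a block. 3 were added after the data were seen, namely the newer quasi-likelihood method of edgeR, leaving out 7 libraries with markers of other cells, and leaving out colon.

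Same-numbered libraries come from 1 animal, by the labels. Over 27 same-mouse pairs of ST2+ and ST2- libraries of a tissue, the mean correlation r of deviations from the group mean was 0.0848 (-0.00891 to 0.218, over 0.1 in 7 pairs) across 8605 genes, against -0.02 between different mice. The 8 genes and the gene lists were chosen with earlier results of these data known. Named in the text are the 8 genes, Il1rl1, the 3 genes most like each, and from each list the 2 genes of smallest adjusted p in each direction. A few genes that this rule names are not reported here. Promoter sequences are those of RefSeq (GRCm38.p6).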

Additional observations from a re-analysis of the deposited data

Results flagged for a closer look

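In 5 of 102 sets of levels of 1 gene in 1 group of 4 or more libraries, 1 library stood far from the others, where chance alone gives about 1 in 20. These were Gata3 in the lung ST2- CD44hi library of mouse 4 (139 CPM, below the others), Batf in the lung ST2- CD44hi library of mouse 2 (194 CPM, above) and in the skin ST2- library of mouse 1 (127 CPM, below), Prdm1 in the blood ST2- library of mouse 5 (64.9 CPM, above) and Pparg in the spleen ST2- CD44hi library of mouse 5 (1.76 CPM, where the others were at 0).

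For 3 genes the test called the ST2 difference as unequal among tissues. The interaction of tissue and ST2 had an adjusted p of 0.0362 for Batf, 0.00176 for Maf and 0.00128 for Nfil3 (edgeR), and the difference in blood exceeded the mean of the other 5 tissues by 0.87, 1.89 and 2.35 on the log2 scale. Without mouse 3 none of the 3 interactions was called (0.366, 0.122 and 0.120), and that of Batf was also lost under the other settings named above.

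Of the 3 libraries left out for depth, 2 held a level whose exact 95% Poisson interval, which covers counting error only, lay above the highest ST2- library of their tissue, without TMM factors. The other one, of colon, held 3582 counts in all and at most 5 of any of the 8 genes. In blood ST2+ Tregs of mouse 1 Gata3 was at 356 CPM and Maf at 305 CPM, against at most 153 and 170 CPM in ST2- libraries. In colon ST2+ Tregs of mouse 5 Gata3 was at 529 CPM, from 33 counts, against at most 273 CPM.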

How the results depend on the processing

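No followed value changed direction under any alternative. Of 77 called fold changes 58 kept the call under each alternative and 19 lost it under some, and 24 of those not called passed under some. Higher ST2 calls numbered 11, with 20 by voom and 18 by the newer quasi-likelihood method, and lower ones 0, with 1 by voom. Against spleen 5 were lower, with 8 by DESeq2, and all 70 libraries left 1 of the 2 higher calls between lung and spleen CD44lo Tregs. The interaction was called in 3 genes, and in 6 by the newer method. The causes were not tested. With mouse as a replicate block the counts were 14 higher for ST2 and 36 higher and 7 lower against spleen, and 2 interactions, and the calls it changed stand beside their results; it changed no other call of these genes. With 1 mouse left out the ST2 calls numbered 10 to 11 higher and 0 to 0 lower, those against spleen 29 to 35 and 3 to 6, the nonlymphoid ones 10 to 12, the CD44hi ones 12 to 12, those in CD44lo Tregs 1 to 2 higher and 0 to 1 lower, and the interactions 0 to 3. Replicates are single mice, and blood ST2- Irf4 and Pparg of ST2- Tregs outside VAT rest on few counts. Strand, 220 cells or fewer per library and markers of other cells, in colon and in single libraries of VAT and skin, limit the levels.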

Other observations

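The blood ST2+ library of mouse 1, left out with 488666 counts from 66 sorted cells, held 4 counts of Rora (8.19 CPM without TMM factors), 1 of Nfil3 and 0 of Pparg and Irf4, whereas Rora was at 624.5 to 663 CPM in the 4 kept libraries of that group.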
